A study of Mus musculus with 12 samples.

Results

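Hepatocyte identity transcription factors are the DNA-binding proteins that turn on and maintain the liver programme. Here 9 of them were followed across 12 mouse liver samples. They are Hnf4a, Foxa1, Foxa2, Foxa3, Cebpa, Cebpb, Onecut1, Prox1 and Nr5a2, 9 of the 19938 genes that the arrays could name. The symbols were listed for their known roles, but with earlier results of these data known. Each was read through the array row that names that gene alone, and every member had 1 such row. All 9 passed the filter on dim genes and were tested among 14953 genes.

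The livers came from mice 7 weeks old, on a mixed C57BL/6 and NMRI background crossed back to C57BL/6 at least 4 times, in 3 groups of 4 arrays. Wild type mice carried no transgene. Transgenic mice carried a constitutively active form of FoxO3, a forkhead factor that is otherwise excluded from the nucleus by insulin signalling, under the LAP promoter. Metformin-treated mice carried the same transgene and received metformin, a glucose-lowering biguanide. How metformin was given, how much and for how long is not in the labels, and neither is the sex of the animals. None of the 12 arrays is from wild type mice given metformin, so metformin was compared only within the transgenic background. The labels do not spell out LAP; in transgenic mice the name usually stands for the promoter of the liver activator protein gene, which is Cebpb, 1 of the 9 members. Values are log2 signals per gene, on which a difference of 1 is a doubling, and the number of arrays limits their precision. Values after ± are SD for a group of 4 and standard errors of the limma fit for a difference.

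These factors work as a network. Foxa1, Foxa2 and Foxa3 are winged helix pioneer factors, able to bind DNA in closed chromatin, and their DNA-binding domain is of the same forkhead type as that of FoxO3. Hnf4a is a nuclear receptor that holds together most of the mature hepatocyte programme; Cebpa and Cebpb are leucine zipper factors of energy metabolism and of the acute phase response; Onecut1, also called HNF6, acts in liver and bile duct development. Prox1 is a homeobox factor of early liver growth and a corepressor of nuclear receptors, and Nr5a2, also called LRH-1, is a nuclear receptor of bile acid and cholesterol genes.

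Several features of the arrays touch every comparison. Xist, the RNA of the inactive X chromosome, read 4.24 to 4.70 in the transgenic arrays and 10.57 to 11.95 in the metformin-treated arrays, while in wild type replicates 1 and 4 carried the Xist signal and replicates 2 and 3 the Y-linked signal. Between the 2 transgenic groups, metformin and the sex-linked signal therefore cannot be told apart by design. Both comparisons with wild type are unbalanced too. Xist signal was on 2 of 4 wild type arrays, 0 of 4 transgenic arrays and 4 of 4 metformin-treated arrays. The sex-linked signal was addressed in part by a pair of fits that estimate its effect from the 4 wild type arrays. These are a fit with the sex-linked signal as a covariate and a fit with the wild type arrays split by Xist signal. Both take that effect to be the same in wild type and transgenic liver, which the arrays cannot show. Transgenic replicate 2 correlated better with wild type (mean r = 0.9842 over all tested genes) than with its own group (0.9683), and of the metformin-treated arrays, replicate 3 was the least like the others (mean r = 0.9744). The Foxo3 row read 8.77 ± 0.16 in wild type, 8.82 ± 0.16 in transgenic and 8.80 ± 0.36 in metformin-treated liver (SD, n = 4), and the groups overlapped; whether this row reads the transgene is not given in the labels. The 16 measured hepatocyte-defining genes averaged 12.75 to 13.06 on every array, and only 5 of the 9 measured cholangiocyte and progenitor markers and 8 of the 10 measured pancreatic acinar markers were bright enough to be tested.

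Foxa1 and Nr5a2 are the members whose level passed the test between transgenic and wild type liver, and the bases just before their annotated starts are shown because both are read again with the motif search further on. The stretches are 250 bases long, from RefSeq (GRCm38.p6), both on the minus strand and written 5′ to 3′, with motif matches in capitals. In the Foxa1 stretch (chr12:57546112-57546361) the capitals mark a forkhead match and the start lies inside the annotated gene, and in the Nr5a2 stretch (chr1:136953631-136953880, the first of 2 annotated starts by coordinate) a C/EBP match.
Foxa1: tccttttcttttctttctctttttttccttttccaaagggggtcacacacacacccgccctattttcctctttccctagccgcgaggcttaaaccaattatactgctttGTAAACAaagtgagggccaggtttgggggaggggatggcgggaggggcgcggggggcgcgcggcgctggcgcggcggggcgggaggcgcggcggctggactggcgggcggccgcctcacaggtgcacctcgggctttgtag
Nr5a2: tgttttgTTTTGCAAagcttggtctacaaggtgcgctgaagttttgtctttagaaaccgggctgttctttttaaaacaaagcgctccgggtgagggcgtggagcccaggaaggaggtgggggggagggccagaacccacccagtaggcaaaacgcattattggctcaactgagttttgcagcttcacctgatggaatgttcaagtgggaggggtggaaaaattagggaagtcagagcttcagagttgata

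Foxa1 was the member that moved most clearly. Its log2 signal was 8.50, 8.66, 8.85 and 8.62 in wild type replicates 1 to 4, 9.69, 9.31, 9.65 and 9.51 in transgenic liver, and 8.18, 8.23, 7.90 and 8.18 in metformin-treated liver. All transgenic arrays lay above all wild type arrays, and all metformin-treated arrays lay below both. Foxa1 was 0.89 ± 0.11 higher in transgenic than in wild type liver (1.85-fold, 95% interval 0.65 to 1.12, adjusted p = 0.0013 by limma with Benjamini-Hochberg adjustment). With metformin it was 1.42 ± 0.11 below the untreated transgenic level (2.68-fold lower, adjusted p = 7.0e-05 by limma), the 4th smallest p of the 14953 genes in that comparison. The metformin-treated level was also below wild type, by 0.54 ± 0.11 (1.45-fold lower, adjusted p = 0.030 by limma). All 3 groups were mutually free of overlap in 258 tested genes (1.73%), and in this order, transgenic highest and metformin-treated lowest, in 116 (0.776%). The comparisons share arrays, so these differences are not independent of each other.

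The higher level with the transgene and the lower level with metformin passed the limma test in 24 of 24 alternative settings each. Most of these settings do not address the sex-linked signal. With that signal as a covariate the transgene and metformin differences were 0.82 ± 0.13 (adjusted p = 0.012 by limma) and -1.29 ± 0.18 (adjusted p = 0.024). With the wild type arrays split by Xist signal they were 0.79 (adjusted p = 0.017 by limma) and -1.23 (adjusted p = 0.044). The difference between metformin-treated and wild type liver was less firm. It became -0.47 ± 0.13 (adjusted p = 0.17 by limma) with the covariate and -0.44 (adjusted p = 0.22) with the split, and it missed the threshold when any one wild type array was left out (adjusted p 0.055 to 0.092) or when metformin-treated replicate 1, 2 or 4 was left out (0.054 to 0.066).

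**Figure D1:**
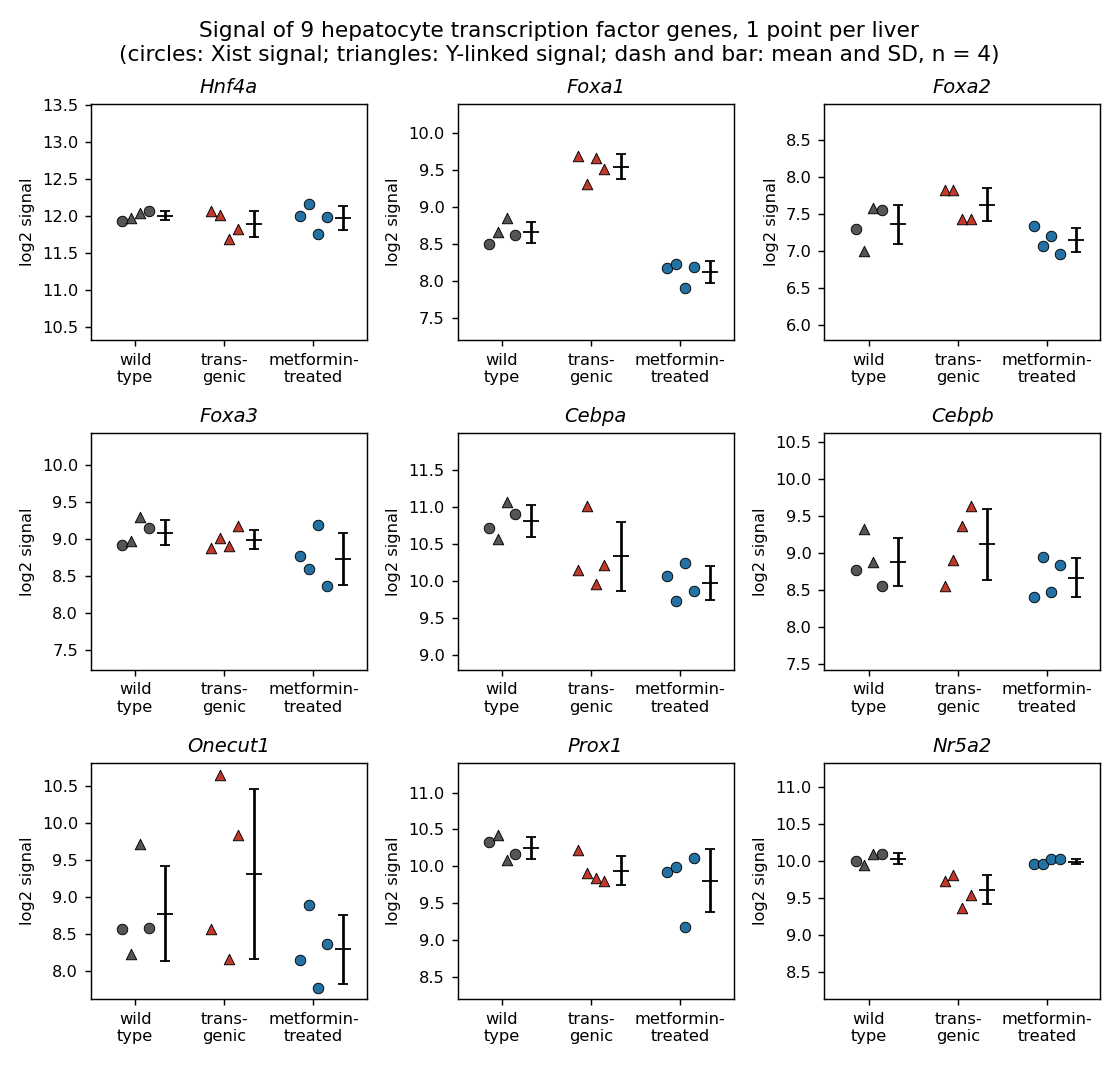
Log2 signal of the 9 members on each of the 12 arrays, 1 panel per gene, with the groups on the horizontal axis; circles are arrays with Xist signal, triangles arrays with Y-linked signal, and the dash and bar beside them the group mean and SD (n = 4). In the Foxa1 panel the transgenic arrays sit between 9.31 and 9.69, above all others, and the metformin-treated arrays between 7.90 and 8.23, below all others; the Onecut1 panel has the widest scatter.

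Foxa2, a close paralogue of Foxa1 and a regulator of glucose and bile acid handling in adult liver, had a more scattered signal. It was 7.31, 7.01, 7.58 and 7.56 in wild type replicates 1 to 4, 7.83, 7.83, 7.44 and 7.44 in transgenic liver, and 7.34, 7.07, 7.21 and 6.97 in metformin-treated liver. Every metformin-treated array lay below every transgenic array, whereas the wild type arrays overlapped both groups. Foxa2 fell by 0.49 on the log2 scale with metformin (standard error 0.15, 1.40-fold lower, adjusted p = 0.030 by limma). The 0.27 ± 0.15 between transgenic and wild type liver did not pass (adjusted p = 0.22 by limma). The metformin difference lost its call in 9 of 24 alternatives, among them the sex covariate (adjusted p = 0.22 by limma), the wild type split (0.26) and quantile normalization (0.065), and without transgenic replicate 1 (0.085) or 2 (0.056) or metformin-treated replicate 2 (0.072) or 4 (0.086).

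Foxa3, the third pioneer factor of the family, differed from Foxa1 in that no comparison passed. Its signal was 8.93, 8.98, 9.30 and 9.14 in wild type, 8.88, 9.02, 8.91 and 9.17 in transgenic, and 8.77, 8.59, 9.20 and 8.36 in metformin-treated liver. The groups overlapped in every comparison, and metformin-treated replicate 3 stood above the other 3 arrays of its group. The differences were -0.09 for transgenic minus wild type (adjusted p = 0.70 by limma), -0.26 for metformin-treated minus transgenic (0.24) and -0.36 ± 0.16 for metformin-treated minus wild type (0.26). Without metformin-treated replicate 3 the last of these was -0.51 (adjusted p = 0.035 by limma) and the one before it -0.42 (0.024). Both were also called with all 12 arrays when arrays were weighted by quality (-0.59 and -0.57, adjusted p = 0.0033 and 0.0031 by limma), and under no other alternative.

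Whether Foxa1 moved apart from its paralogues was tested on the difference of log2 signals within each array, a contrast chosen after the values were seen. Foxa1 minus Foxa3 was 0.55 ± 0.27 in transgenic and -0.43 ± 0.083 in wild type liver (SD, n = 4), without overlap, a shift of 0.98 (two-sided exact permutation test, p = 0.029; 0.11 after Benjamini-Hochberg adjustment over 12 such tests). With metformin the same quantity was 1.16 lower than in transgenic liver, and Foxa1 minus Foxa2 was 0.94 lower, again both without overlap and with the same exact permutation p. That value, 0.0286, is the smallest that 4 arrays against 4 can give, and none of the 12 tests passed after adjustment. At this floor a few such tests cannot pass adjustment over 12, however large the shift. The shift of Foxa1 against Foxa2 between transgenic and wild type liver was 0.62, with overlapping groups (exact permutation p = 0.057). Foxa2 against Foxa3 shifted by 0.36 there (exact permutation p = 0.11).

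**Figure D2:**
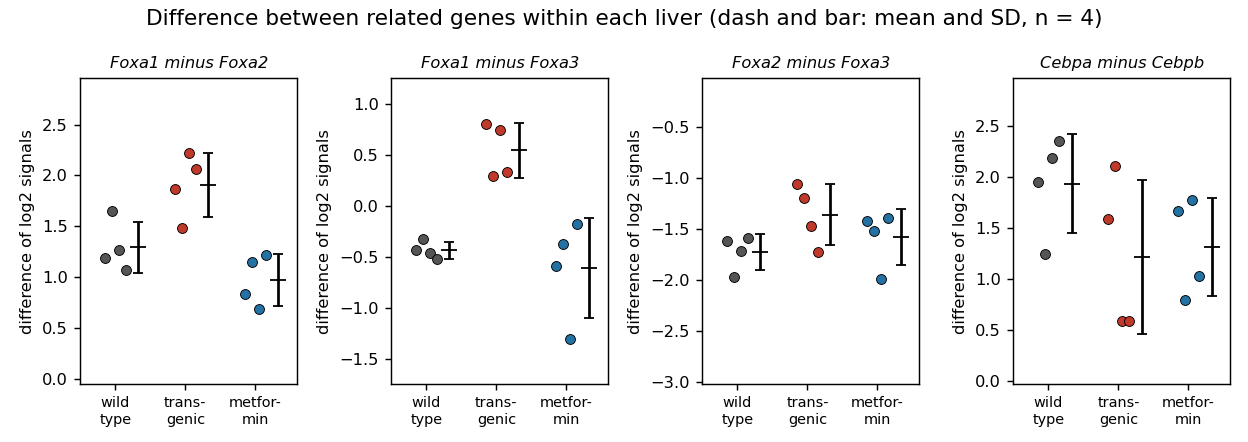
Difference of log2 signals between paralogues within each array, by group (points are arrays, bars are group mean and SD, n = 4). Foxa1 minus Foxa3 averages 0.55 in transgenic liver and -0.43 in wild type liver without overlap, while Foxa2 minus Foxa3 overlaps between all groups.

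Hnf4a, together with Nr5a2, had the steadiest signal of the 9: 39.6% and 29.6% of the tested genes had a smaller residual SD. It was 11.94, 11.97, 12.05 and 12.07 in wild type, 12.07, 12.02, 11.68 and 11.82 in transgenic, and 12.01, 12.16, 11.76 and 11.98 in metformin-treated liver. All groups overlapped. Transgenic minus wild type was -0.11 (95% interval -0.33 to 0.12, adjusted p = 0.49 by limma), metformin-treated minus transgenic 0.08 (0.62) and metformin-treated minus wild type -0.03 (0.92). The first interval leaves room for a fall of 0.33 on the log2 scale and for a rise of 0.12, and Hnf4a was not called in any alternative.

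Nr5a2 moved opposite to Foxa1. Its signal was 10.0025, 9.95, 10.10 and 10.09 in wild type, 9.74, 9.81, 9.37 and 9.55 in transgenic, and 9.96, 9.97, 10.03 and 10.04 in metformin-treated liver. The 4 transgenic arrays lay below all 8 others, and the metformin-treated arrays lay within the wild type range. Nr5a2 was lower by 0.42 ± 0.09 in transgenic than in wild type liver (1.34-fold lower, adjusted p = 0.016 by limma) and higher by 0.38 ± 0.09 with metformin (1.30-fold, adjusted p = 0.012 by limma). Metformin-treated minus wild type was -0.04 (95% interval -0.24 to 0.16). The sizes barely moved with the sex covariate, at -0.42 and 0.38, but the adjusted p became 0.065 and 0.22 by limma, and 0.088 and 0.31 with the wild type split, so both calls are lost there.

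**Figure D3:**
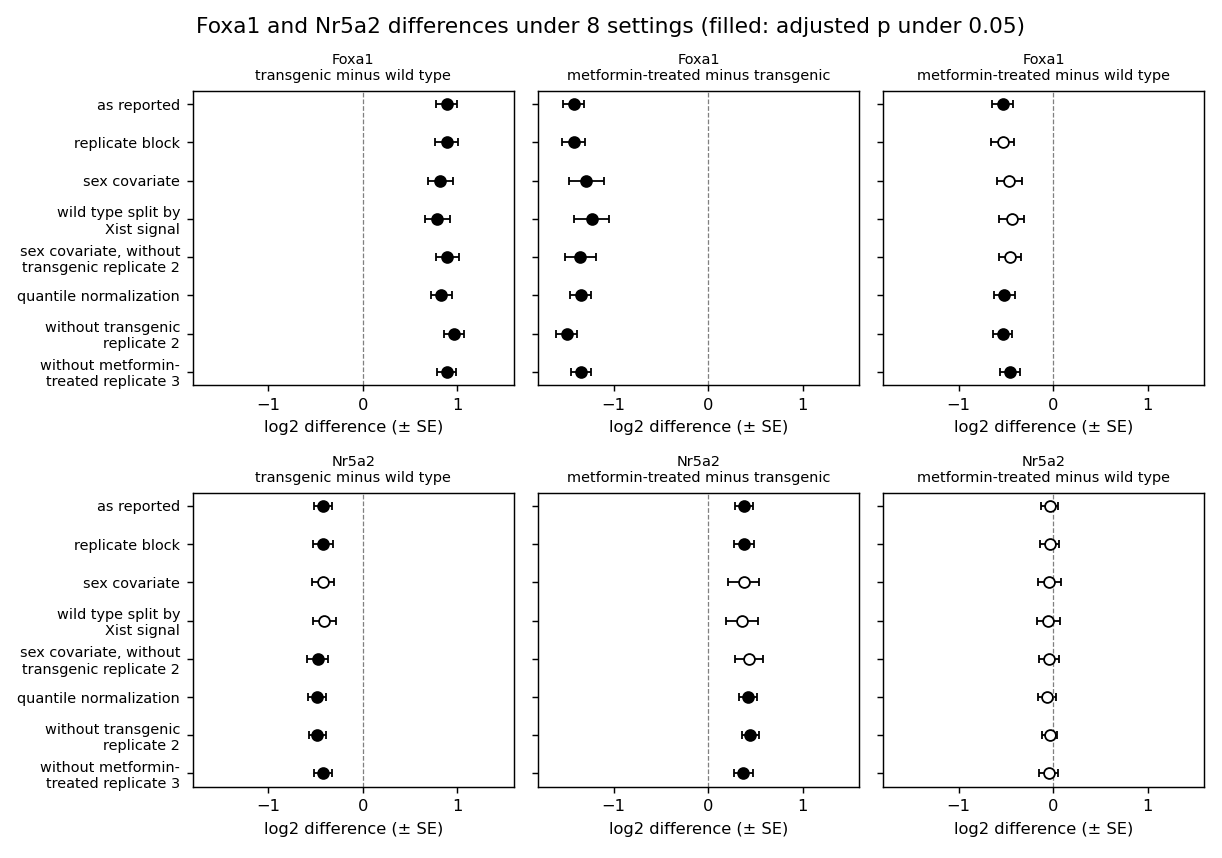
Log2 differences of Foxa1 and Nr5a2 under 8 processing settings, with standard errors as bars, filled where the limma adjusted p is under 0.05. The Foxa1 differences involving the transgenic group are filled under all 8, while those of Nr5a2 are open with the sex covariate and with the wild type arrays split by Xist signal.

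Cebpa, a driver of glycogen, lipid and urea cycle genes, was lowest with metformin. Its signal was 10.72, 10.56, 11.07 and 10.90 in wild type, 10.15, 11.02, 9.96 and 10.22 in transgenic, and 10.07, 9.73, 10.25 and 9.86 in metformin-treated liver. Every metformin-treated array lay below every wild type array, and within the transgenic group replicate 2 alone lay in the wild type range. Cebpa passed the moderated F test for any difference among the 3 groups (adjusted p = 0.030 by limma), but no single comparison passed. The F test called it in 13 of 23 alternatives: the call was lost with the sex covariate (adjusted p = 0.12 by limma), with the wild type split (0.14), with the replicate block (0.071), and without transgenic replicate 4, wild type replicate 1, 3 or 4, or metformin-treated replicate 1, 2 or 4 (0.051 to 0.080). Metformin-treated minus wild type was -0.84 ± 0.21 (95% interval -1.28 to -0.39, adjusted p = 0.057 by limma), and it passed in 6 of 24 alternatives, such as the fit on those 8 arrays only (0.020). Transgenic minus wild type was -0.48 ± 0.21 (adjusted p = 0.13 by limma), and -0.70 without transgenic replicate 2 (0.0044).

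Cebpb, the paralogue that is induced in inflammation and regeneration, overlapped between all groups. Its signal was 8.76, 9.32, 8.88 and 8.54 in wild type, 8.55, 8.91, 9.37 and 9.64 in transgenic, and 8.40, 8.94, 8.47 and 8.83 in metformin-treated liver. Transgenic replicates 3 and 4 gave the highest values, yet transgenic minus wild type was 0.24 with an adjusted p of 0.49 by limma, and metformin-treated minus transgenic was -0.46 (0.17). Metformin-treated minus wild type was -0.22 (adjusted p = 0.71 by limma). Cebpa minus Cebpb within an array was 1.94 ± 0.49 in wild type and 1.22 ± 0.76 in transgenic liver (SD, n = 4), a shift of -0.72 that the exact permutation test did not call (p = 0.20).

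Onecut1 had the widest scatter of the members. Its signal was 8.57, 8.23, 9.71 and 8.57 in wild type, 8.56, 10.65, 8.16 and 9.84 in transgenic, and 8.14, 8.89, 7.77 and 8.37 in metformin-treated liver. Transgenic replicates 2 and 4 and wild type replicate 3 were high, and the 4 transgenic arrays alone spanned 2.49. The residual SD of Onecut1, 0.81, was larger than that of 99.2% of the tested genes, whose median was 0.165. Transgenic minus wild type was 0.53 ± 0.50 (95% interval -0.55 to 1.61, adjusted p = 0.48 by limma) and metformin-treated minus transgenic -1.01 (interval -2.09 to 0.07, adjusted p = 0.16), and both intervals hold a 2-fold change. Metformin-treated minus wild type was -0.48 (adjusted p = 0.69 by limma).

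Prox1 gave 10.33, 10.42, 10.09 and 10.17 in wild type, 10.22, 9.92, 9.84 and 9.80 in transgenic, and 9.92, 9.996, 9.18 and 10.12 in metformin-treated liver. Metformin-treated replicate 3 was the lowest of the 12 arrays, and the groups overlapped in every comparison. Metformin-treated minus wild type was -0.45 ± 0.18 (95% interval -0.84 to -0.06, adjusted p = 0.22 by limma). Transgenic minus wild type was -0.31 (adjusted p = 0.26 by limma) and metformin-treated minus transgenic -0.14 (0.61).

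Counted over the 9 members, transgenic against wild type liver had 1 higher (Foxa1) and 1 lower (Nr5a2), where 14.1% of all tested genes were called, 7.97% higher and 6.15% lower. Metformin-treated against transgenic liver had 1 higher (Nr5a2) and 2 lower (Foxa1 and Foxa2), where 24.7% of all genes were called, 10.6% higher and 14.1% lower. Metformin-treated against wild type liver had 1 lower (Foxa1) and none higher (limma, 4 members with an unadjusted p under 0.05), where 2.43% were called, 0.990% higher and 1.44% lower. The moderated F test called 3 members (Foxa1, Cebpa and Nr5a2), where 24.2% of genes were called. Groups without overlap were seen for 2 of the 9 members between transgenic and wild type liver (1 higher and 1 lower), where 21.9% of all genes had none, 10.9% higher and 11.0% lower. Between metformin-treated and transgenic liver they were seen for 3 (1 higher and 2 lower; 21.6% of all genes, 9.93% higher and 11.7% lower), and between metformin-treated and wild type liver for 2, Foxa1 and Cebpa, both lower (14.4% of all genes, 6.21% higher and 8.23% lower). The members' median log2 differences were -0.09, -0.36 and -0.36 in these comparisons, beside -0.01, -0.01 and -0.02 over all tested genes. With 9 genes, each of these totals lies within about 1 gene of the background share.

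**Figure D4:**
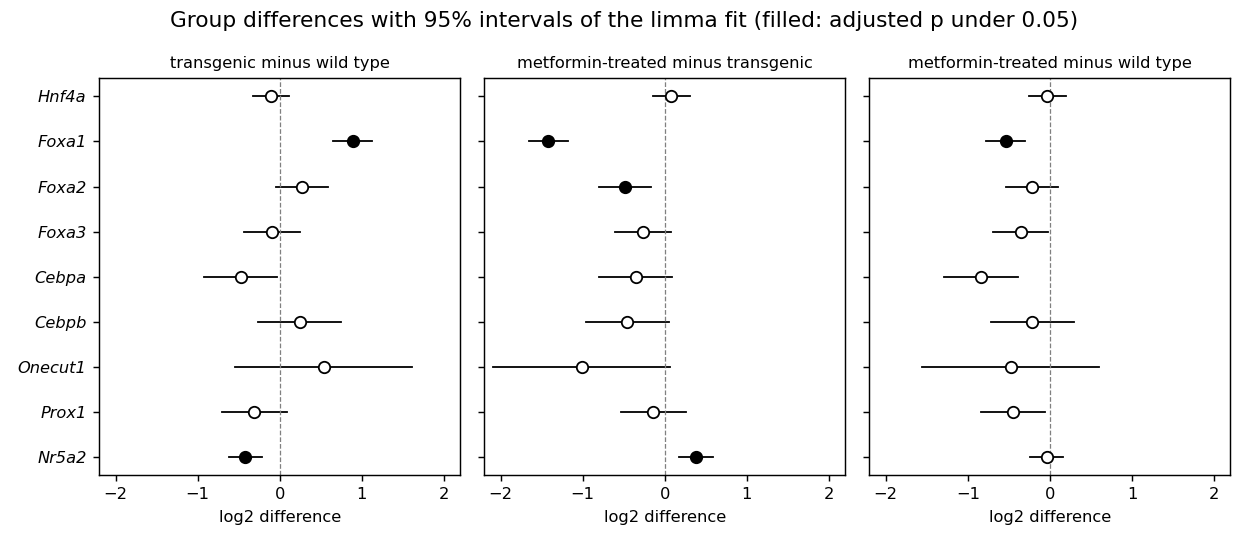
Log2 difference of each member in the 3 comparisons with its 95% interval from the limma fit, filled where the adjusted p is under 0.05. Foxa1 lies at 0.89, -1.42 and -0.54, Nr5a2 at -0.42, 0.38 and -0.04, and the intervals of Onecut1 are the widest.

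The genes whose pattern over the 12 arrays lay closest to a called member were found by the root mean square difference of centred log2 signals. For Foxa1 they were Nhsl1 (0.13), Ranbp10 (0.13) and Zfp217 (0.16), with Foxa1 itself varying by an SD of 0.63 over the arrays. For Nr5a2 they were Crybb3 (0.064), Slc20a2 (0.068) and Vtn (0.070), beside an SD of 0.23. For Cebpa they were Abca2 (0.15), Gpr146 (0.18) and Pgrmc2 (0.20), beside an SD of 0.46. Zfp217, for instance, averaged 6.74 in wild type, 7.50 in transgenic and 6.33 in metformin-treated liver, the same order as Foxa1, and Vtn averaged 13.41, 13.03 and 13.37, the same order as Nr5a2.

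The promoters of all 9 members were in the RefSeq table, with 14 windows of 300 bases around an annotated start, most of each before it, and they were searched on both strands for 6 motifs beside all 32851 windows. The forkhead motif TGTTTAC was in 1 of the 14 windows, that of Foxa1 printed above, where it reads in the opposite orientation and begins 141 bases before the start; 3.65% of all windows hold it. The C/EBP motif TTGCNNAA was in 1, the Nr5a2 window printed above, beginning 243 bases before the start (10.8% of all windows). The Onecut motif ATCAAT was in 2, 1 of Hnf4a and 1 of Foxa2 (7.54% of all). The Hnf4a motif CAAAGTCCA (0.475%), the Nr5a2 motif CAAGGTCA (1.56%) and the Hnf1 motif (0.0609%) matched none of the 14. A match is only a string of letters in these windows, and other transcript starts of these genes are not covered.

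Genes commonly linked to each factor were described as lists, which overlap each other (Slc2a2, Cyp7a1 and Ttr stand in several). Their counts are to be read beside the share of all tested genes called. That share was 14.1% with the transgene, 24.7% with metformin and 2.43% between metformin-treated and wild type liver. Of 30 tested genes linked to Hnf4a, 13 were lower and 1 higher in transgenic than in wild type liver, with a median difference of -0.46, although Hnf4a itself was not called. Slc2a2, the glucose transporter of hepatocytes, fell by 0.81 ± 0.15 (adjusted p = 0.0068 by limma), the coagulation factor gene F7 by 1.17 ± 0.24 (0.011) and the thyroxine carrier Ttr by 0.44 ± 0.10 (0.017), whereas the apolipoprotein gene Apom was higher by 1.00 ± 0.22 (0.017). With metformin 16 of the 30 were higher and 1 lower than in transgenic liver, with a median of 0.47. Slc2a2 was higher by 1.32 ± 0.15 (adjusted p = 0.00032 by limma), Cyp7a1, the rate-limiting enzyme of bile acid synthesis, by 1.21 ± 0.20 (0.0018), the sterol exporter Abcg5 by 1.47 ± 0.25 (0.0020) and F7 by 1.32 ± 0.24 (0.0028). None of the 30 was called between metformin-treated and wild type liver by limma (8 had an unadjusted p under 0.05), and the median there was 0.01. Leaving out 1 array changed the 14 genes called with the transgene to between 4 (without wild type replicate 1, where 6.30% of all genes were called) and 18 (without transgenic replicate 2, 26.8%), and the 17 with metformin to between 12 (without transgenic replicate 3, 16.2%, or metformin-treated replicate 1) and 21 (without transgenic replicate 2, 32.3%). The share of all genes called also moved under these settings, from 5.10% to 26.8% with the transgene and from 16.2% to 32.3% with metformin over the 12 arrays left out in turn, and the ranges of the other lists are to be read beside it. With the sex covariate the medians were -0.49 and 0.44, but limma called 1 gene with the transgene and 0 with metformin (16 and 14 at an unadjusted p under 0.05), where 4.35% and 0.548% of all genes were called.

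Of the 18 tested genes linked to Nr5a2, 4 were lower and 2 higher in transgenic than in wild type liver (median -0.27), and 8 were higher and 2 lower with metformin (median 0.34). Scarb1, the receptor that takes up cholesterol from HDL, was among the genes that went the other way, higher by 0.47 ± 0.11 with the transgene (adjusted p = 0.020 by limma) and lower by 0.75 ± 0.11 with metformin (0.0011). Cyp7a1 was lower by 0.71 ± 0.20 in transgenic liver (adjusted p = 0.035 by limma) and Abcg5 lower by 0.88 ± 0.25 (0.036). None of the 18 was called between metformin-treated and wild type liver by limma (6 had an unadjusted p under 0.05). Leaving out 1 array changed the 6 calls with the transgene to between 1 (without wild type replicate 1) and 8, and the 10 with metformin to between 6 (without transgenic replicate 3) and 12. With the sex covariate limma called none of the 18 in these comparisons (6 in each had an unadjusted p under 0.05), with medians of -0.18 and 0.20. Under that setting 4.35% of all genes were called with the transgene and 0.548% with metformin.

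The lists linked to the other factors were mixed. Of 19 genes linked to the Foxa factors, 3 were higher and 5 lower with the transgene (median -0.08), led by Slc2a2 and by Igfbp1, an insulin-repressed binding protein of IGF1, which was higher by 3.41 ± 0.64 (adjusted p = 0.0079 by limma); the fetal albumin relative Afp was higher by 3.03 ± 0.73 (0.021). Without transgenic replicate 2, Igfbp1 was higher by 4.26 ± 0.26 and Afp by 3.97 ± 0.33 with the transgene. With the sex covariate Igfbp1 kept this call (adjusted p = 0.034 by limma) and Afp lost it (0.070). Whether Igfbp1 and Afp followed a Foxa factor or the FoxO3 transgene itself was not tested. With metformin 6 of the 19 were higher and 2 lower (median 0.11), the 2 being Afp (-3.11 ± 0.73, adjusted p = 0.010 by limma) and Igfbp1 (-2.62 ± 0.64, 0.012). Of 26 C/EBP-linked genes, 2 were higher and 4 lower with the transgene (median 0.00), among them glycogen synthase Gys2 (0.86 ± 0.15, adjusted p = 0.0056 by limma), arginase Arg1 (-0.94 ± 0.19, 0.012) and haptoglobin Hp (-1.15 ± 0.24, 0.012). With metformin 5 C/EBP-linked genes were higher and 2 lower (median 0.05), where 24.7% of all genes were called. Of 10 Onecut1-linked genes, 3 were lower with the transgene (Slc2a2, Ttr and Cyp7a1; median -0.21), and 4 were higher and 2 lower with metformin (median 0.28), Foxa2 being 1 of the 2. Of 18 acute phase genes, which the C/EBP factors help to induce, 1 was higher and 5 lower with the transgene (median -0.16) and 6 higher and 1 lower with metformin (median 0.27). None of these 4 lists had a gene called between metformin-treated and wild type liver by limma; 2 Foxa-linked, 3 C/EBP-linked, 3 Onecut1-linked and 3 acute phase genes had an unadjusted p under 0.05 there. The Foxa-linked calls with the transgene ranged from 3 (without transgenic replicate 1 or 3, or wild type replicate 2) to 9 when 1 array was left out, the C/EBP-linked ones from 5 to 10 (without transgenic replicate 2), and the acute phase ones from 2 (without transgenic replicate 3, or wild type replicate 1 or 2) to 10 (without transgenic replicate 2). With metformin the C/EBP-linked calls and the acute phase calls each dropped to 4 without transgenic replicate 1 or 3. With the sex covariate 3 Foxa-linked, 5 C/EBP-linked, 1 Onecut1-linked and 4 acute phase genes were called with the transgene, and limma called none of these 4 lists' genes with metformin (7, 9, 4 and 7 had an unadjusted p under 0.05). Of all genes, 4.35% were called with the transgene and 0.548% with metformin under that setting.

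**Figure D5:**
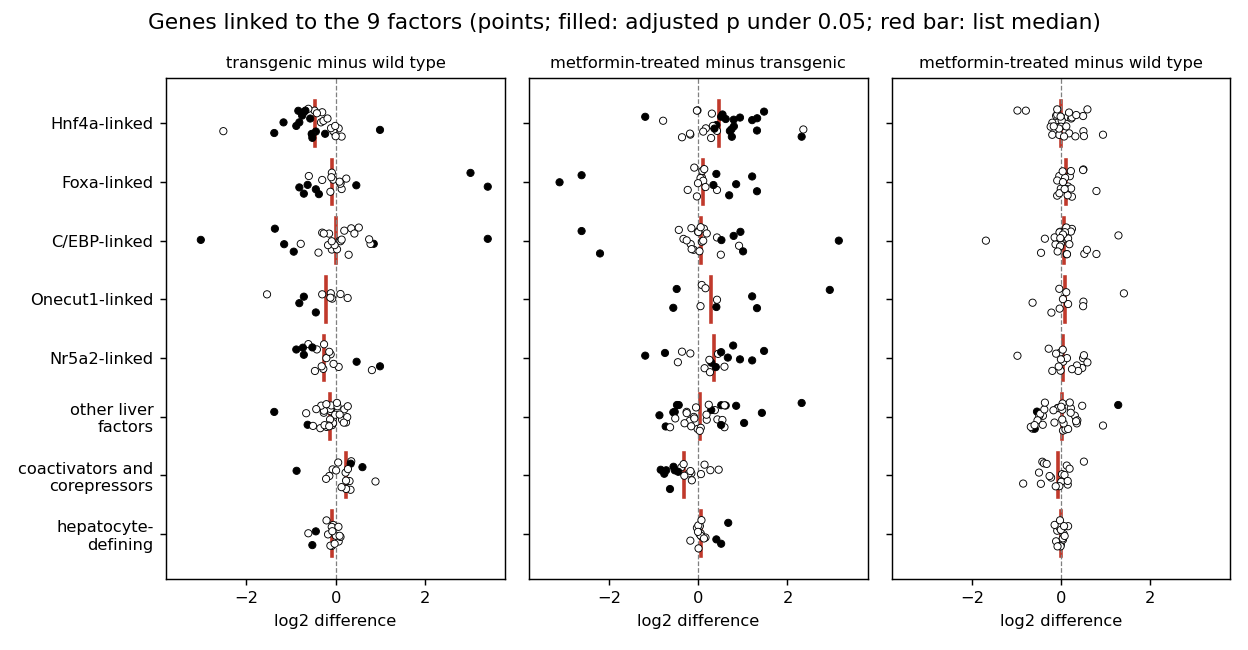
Log2 differences of the tested genes in each list linked to a factor, for the 3 comparisons, with the list median marked. The Hnf4a-linked genes have medians of -0.46 with the transgene and 0.47 with metformin, and 0.01 between metformin-treated and wild type liver.

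The next 2 lists are also to be read beside the shares of all tested genes called. Those were 14.1% with the transgene, 24.7% with metformin and 2.43% between metformin-treated and wild type liver. Among 35 other liver-enriched transcription factors, 2 were lower with the transgene, the bile acid receptor Nr1h4 (-0.63 ± 0.16, adjusted p = 0.026 by limma) and the xenobiotic receptor Nr1i3 (-1.38 ± 0.42, 0.046). With metformin 8 were higher and 6 lower, led by Gata4, a zinc finger factor of early liver (-0.73 ± 0.11, adjusted p = 0.0010 by limma), Nr1i3 (2.32 ± 0.42, 0.0028), Cux2, known for its sex-biased liver level (1.43 ± 0.27, 0.0035), and Nr1h4 (0.85 ± 0.16, 0.0036). Against wild type, metformin-treated liver had 1 higher, Cux2 (1.28 ± 0.27, adjusted p = 0.033 by limma), and 2 lower, Gata4 (-0.59 ± 0.11, 0.021) and Nr2f2 (-0.54 ± 0.12, 0.042). Which cells of the liver these signals came from was not tested. Of 18 coactivators and corepressors, the demethylase Kdm1a (0.60 ± 0.12, adjusted p = 0.012 by limma) and the CREB coactivator Crtc2 (0.34 ± 0.10, 0.047) were higher with the transgene and Ppargc1b lower (-0.88 ± 0.23, 0.027). With metformin 7 were lower and none higher, among them Crtc2 (-0.72 ± 0.10, adjusted p = 0.00080 by limma) and the chromatin remodeller Smarca4 (-0.56 ± 0.11, 0.0044). None was called between metformin-treated and wild type liver by limma (3 had an unadjusted p under 0.05). These counts also moved with single arrays: the 2 other factors lower with the transgene became 0 without transgenic replicate 1 or 3 or wild type replicate 1 or 2, and 5 without transgenic replicate 2 or metformin-treated replicate 3. The 3 coregulators called with the transgene became 1 without transgenic replicate 1 or 3 or any 1 wild type array, and 7 without metformin-treated replicate 3. The 7 coregulators called with metformin became 2 without transgenic replicate 3, and 3 without transgenic replicate 1. The 3 other factors called against wild type became 0 without wild type replicate 1 or 3 or metformin-treated replicate 4. With each array left out in turn, 5.1% to 26.8% of all genes were called with the transgene and 16.2% to 32.3% with metformin. Against wild type the share was 0.468% to 5.2%. With the sex covariate neither list had a call by limma in any of the 3 comparisons, where 4, 8 and 10 of the other factors and 4, 5 and 3 of the coregulators had an unadjusted p under 0.05. Under that setting only 4.35%, 0.548% and 0.0936% of all tested genes were called.

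Markers of other liver cells moved with some of these results. In whole liver, fewer cells of a type and less RNA per cell cannot be told apart. As before, 14.1% of all tested genes were called with the transgene and 24.7% with metformin. Of 12 Kupffer cell and macrophage markers, 4 were higher with the transgene (Cd5l, C1qa, Clec4f and Marco; list median 0.69), and 4 were lower with metformin (Cd68, C1qa, Cd5l and Marco; list median -0.51). Their summed linear signal was 6749 to 11536 in wild type, 10306 to 16721 in transgenic and 6430 to 11821 in metformin-treated liver. With the transgene and with metformin this is the direction of Foxa1 and opposite to Nr5a2. Between metformin-treated and wild type liver the marker sums overlapped (list median 0.15), whereas Foxa1 was lower by 0.54. The part of these markers in the Foxa1 and Nr5a2 results was not tested. The 4 higher calls became 10 without metformin-treated replicate 3 (21.8% of all genes called) and 8 without transgenic replicate 2 (26.8%). The 4 lower calls became 7 without transgenic replicate 2 (32.3%) and 0 without transgenic replicate 1 (18.6%) or 3 (16.2%). Over the 12 arrays left out in turn, this share was 5.1% to 26.8% with the transgene and 16.2% to 32.3% with metformin. The counts of the other marker lists are to be read beside it. With the sex covariate 4 were higher with the transgene (4.35% of all genes called), and none was called with metformin by limma (10 had an unadjusted p under 0.05, and 0.548% of all genes were called). Of the 16 hepatocyte-defining genes 2 were lower with the transgene (Ttr and Serpina1c; median -0.08) and 3 higher with metformin (Ttr, Serpina1c and Asgr1; median 0.05). The 2 became 5 without transgenic replicate 2 and 1 without any 1 other array but metformin-treated replicate 3, and the 3 became 5 without transgenic replicate 2 and 1 without transgenic replicate 1, 3 or 4. Of 12 stellate cell markers 1 was higher (Dcn) and 1 lower (Col1a1) with the transgene and 3 were lower with metformin (Des, Rgs5 and Ecm1). The 2 stellate calls with the transgene became 0 without transgenic replicate 3, wild type replicate 1, 2 or 4, or metformin-treated replicate 1 or 2, and 5 without transgenic replicate 2 or metformin-treated replicate 3; the 3 with metformin became 6 without transgenic replicate 2. With the sex covariate limma called no hepatocyte-defining gene and no stellate cell marker in either comparison (3 of each list with the transgene and 2 of each with metformin had an unadjusted p under 0.05). Of 14 endothelial markers 1 was lower in each of these comparisons (Pdpn, then Tie1). The summed linear signal of the endothelial markers was 9437 to 10898 in wild type, 10076 to 12534 in transgenic and 5279 to 12011 in metformin-treated liver. These ranges overlapped, but the lowest metformin-treated sum lay below every array of the other groups. Its part in the member results was not tested. Of 8 acinar markers 1 was lower with the transgene (Cela3b) and 0 were called with metformin by limma (0 with an unadjusted p under 0.05). The Pdpn call was lost without transgenic replicate 3 or 4 or wild type replicate 1, 3 or 4, the Cela3b call without transgenic replicate 1, 3 or 4 or wild type replicate 1, 2 or 3, and the Pdpn and Tie1 calls with the sex covariate. No cholangiocyte or progenitor marker was called in either comparison by limma, Krt19 and Krt7 included (2 and 1 of the 5 tested had an unadjusted p under 0.05), although 3 were called with the transgene once transgenic replicate 2 was left out. None of these 6 marker lists had a call between metformin-treated and wild type liver by limma; 2 cholangiocyte, 2 endothelial and 4 stellate cell markers had an unadjusted p under 0.05 there, and no hepatocyte, Kupffer cell or acinar marker did.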

How the data were processed

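Mouse liver RNA of 12 samples was labelled with biotin by a whole-transcript sense target assay and hybridised to Affymetrix arrays, per the labels' protocols. Affymetrix Expression Console is named, without a version, in the submitters' processing notes. The deposited value table holds log2 signals, 35556 rows by 12 arrays, with array medians between 5.69 and 5.85; the sources used here do not give how they were summarised and normalized, and they were used as deposited. Rows were named through the platform annotation, and 21789 name exactly 1 gene. A gene was read through its row with the highest mean, which gave 19938 genes; the dimmest 25% by mean signal were dropped, so 14953 were tested.

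Group differences come from limma 3.58.1, run in R 4.3.3 (lmFit, then eBayes; all 12 arrays, two-sided, Benjamini-Hochberg over all tested genes, threshold 0.05), and 3 group means with its moderated F test. Paralogue pairs were compared with exact permutation tests (scipy 1.17.1). The fit was tested on simulated data. Titles call the samples biological replicates; nothing further says that they come from separate animals.

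The members, gene lists, rules and paralogue tests were chosen with earlier results of these data known. Besides the 9 members, the text names, per list, up to 4 called genes with the smallest p and the genes of small counts, and, per member called by the F test, the 3 genes nearest in pattern. List genes not measured are not analysed here. Alternatives covered the dim-gene filter, rows per gene, normalization, the replicate number as a block, eBayes settings, weights per array, the sex-linked signal, thresholds, and each array left out.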

Additional observations from a re-analysis of the deposited data

Results flagged for a closer look

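Foxa1 in metformin-treated liver had an array apart from the rest of its group. Replicate 3 read 7.90, while the other 3 arrays lay between 8.18 and 8.23, and the gap was 0.854 of the group's range, above Dixon's critical value of 0.829 for 4 arrays. It was the only one of 27 groups of 4 (9 members in 3 groups) set apart in this way, and chance alone sets apart about 1 in 20.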

How the results depend on the processing

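Of 648 values of single members under an alternative, 603 kept their direction and their side of the threshold, 25 lost the call, 14 gained one and 6 changed sign, none of the 6 called. The sign changes were Onecut1, transgenic minus wild type, at -0.086 with the sex covariate and without transgenic replicate 2; Prox1, metformin-treated minus transgenic, at 0.16 with array weights and -0.25 to 0.069 with each array left out; Hnf4a, metformin-treated minus wild type, at 0.0086 and -0.091 to 0.041 under these settings; and Cebpb, metformin-treated minus wild type, at 0.0080 with the wild type arrays split by Xist signal. The positive ends for Prox1 and Hnf4a were without metformin-treated replicate 3. With each array left out, 2 uncalled paralogue differences also changed sign: Foxa1 minus Foxa3, metformin-treated minus wild type, at -0.32 to 0.052 (positive without metformin-treated replicate 3), and Cebpa minus Cebpb, metformin-treated minus transgenic, at -0.11 to 0.39 (negative without transgenic replicate 3 or 4 or metformin-treated replicate 1 or 3).

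Percentages in brackets are the share of all genes called under the same setting. The 2 members called between transgenic and wild type liver (14.1%) became 1 at a threshold of 0.01 (2.82%), with the sex covariate (4.35%) or with the wild type split (2.57%), and 4 with array weights (32.2%); leaving out each array gave 2 to 3 (5.10% to 26.8%). The 3 called between metformin-treated and transgenic liver (24.7%) became 1 at 0.01 (11.1%), with the covariate (0.548%), with the split (0.127%), and with the covariate and without transgenic replicate 2 (12.3%); leaving out each array gave 2 to 4 (16.2% to 32.3%). The 1 called between metformin-treated and wild type liver (2.43%) became 0 at 0.01 and with the covariate, the split, or the covariate without transgenic replicate 2 (limma, 4, 2, 2 and 2 members at an unadjusted p under 0.05; 0.0803% to 0.194%), 2 at a threshold of 0.1, with 50% of genes filtered as dim, with quantile normalization or on those 8 arrays (2.56% to 5.60%), and 3 with array weights (20.4%); leaving out each array gave 0 to 3 (0.468% to 5.20%). The F test's 3 (24.2%) became 1 at 0.01 (8.32%), with the covariate (2.27%) or the split (1.26%), and 5 with array weights (50.6%); leaving out each array gave 2 to 4 (13.4% to 34.3%), and it has no version on 8 arrays. The cause of these changes was not tested.

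Deviations from the group means correlated at -0.18 to 0.24 between same-numbered arrays and at -0.32 to 0.38 between differently numbered ones. The labels do not say whether the replicate number marks a pairing, and these values cannot settle it. With the replicate number as a block the counts were 2, 2, 0 (4 at an unadjusted p under 0.05) and 2 (12.1%, 22.4%, 0.903% and 20.2% of all genes). The 4 arrays of a group limit what could be called, most of all for Onecut1.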
